A study of Mus musculus with 28 samples.

Results

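The genes described here are 47 long genes of neuronal adhesion, synapse formation and axon guidance, taken by symbol from a list and found among 21755 protein-coding genes of the mouse annotation on chromosomes 1 to 19 and X. For each gene, the position of its start inside or outside H3K9me2 domains was read, together with the share of its body covered by domains (the body share, in percent of bases). H3K9me2, a histone mark of repressed chromatin, is deposited by EHMT2 and its partner EHMT1. Its positions were obtained by ULI-NChIP, in which chromatin is immunoprecipitated without crosslinking from few cells, with antibody ab1220, in mouse embryonic stem cells (mESCs) of a BL6/129 hybrid background. The line carried EHMT2-dTAG-mcherry, in which the endogenous EHMT2 protein bears a degron that the degrader dTAG-13 acts on, and the sorted cells also carried a reporter, MERV-GFP in the labels and MERVL-GFP in the study's methods. Every sample carries the degron, and by the study's methods the sorted experiments came from a single clone, with stem cells kept on fibroblast feeders.

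Cells in FBS and LIF received DMSO, the solvent control, or dTAG-13 for 72 h, and were sorted by MERVL-GFP into negative mESCs and positive 2-cell-like cells (2CLCs), which arise at low frequency in such cultures and share features with the embryo at the 2-cell stage. TTNBP, an agonist of retinoic acid receptors, was given to 2 replicates that the labels do not single out, while the study's methods mention it with no exception, so cultures with and without it may be mixed within a sorted condition. Each of the sorted conditions, called mESC or 2CLC with DMSO or dTAG here, had 3 immunoprecipitation and 3 input libraries, and bulk mESCs after 24 h in DMSO had 2 of each, which makes 28 libraries. The data are 5 lists of domains, a single list for each sorted condition and a further list whose name gives neither cell state nor treatment, called the unnamed set here. No library has values of its own, so no difference below could be set against the spread between replicates, no test was made, and the depth behind the domains is unknown. A domain is a stretch where the ratio of immunoprecipitation to input passed limits set by the authors, and its presence is not a level of the mark. The limits were percentiles, and whether they were set anew for each list was not stated. The paper reports lower H3K9me2 genome-wide after EHMT2 depletion. With limits set per list, a fall shared by all regions would not show, so equal coverage does not mean an equal level. The sets differ in total size, with 53.7% of these chromosomes in mESC DMSO domains and 46.3% in mESC dTAG domains, and 51.5% and 48.4% in the 2CLC sets.

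Adhesion and guidance proteins place axons and build synapses. Receptors such as ROBO, DCC and UNC5 proteins steer growing axons along gradients of SLIT and netrin ligands, while neurexins, neuroligins, LRRTMs and receptor phosphatases meet across the synaptic cleft. Many of the genes that encode them span very long introns in AT-rich, gene-poor regions that in stem cells often lie at the nuclear lamina, where broad H3K9me2 is found. Expression was not measured in these files, so the neuronal part of the description rests on the names of the genes. The list also holds genes outside adhesion and guidance in the strict sense, such as Dpp6 and Dpp10, which encode accessory subunits of potassium channels, and Ctnna3, which is known chiefly from heart muscle.

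The list was long as its name says. Gene length ran from 15.1 kb to 2271 kb with a median of 791.3 kb, against a median of 17.41 kb over all protein-coding genes. At least 100 kb was reached by 46 of 47 genes, with Lrrtm1 at 15.1 kb as the exception, and at least 1000 kb by 17. Of the 47 longest protein-coding genes, 16 were on the list. Because long genes differ from short ones in their domains, the values below are set beside all protein-coding genes and beside the 2489 protein-coding genes of at least 100 kb. The listed genes are also not independent of each other in position. Lrrtm1 lies inside Ctnna2 and Lrrtm3 inside Ctnna3, in both cases on the opposite strand, and several neighbours, such as Opcml and Ntm or Cdh12 and Cdh18, shared domains.

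The gene starts are shown by 6 promoter windows from RefSeq on GRCm38.p6, each from 250 bases before to 50 after a transcript start. Each gene was taken by its RefSeq window nearest to the annotated start and within 1000 bp of it. Among these, the windows shown have the fewest and the most CG dinucleotides for listed genes whose start lay in domains in all 4 sorted sets (Cntn6, tied with Lrrtm4, and Cdh7, tied with Cdh20), in some (Lrrtm1 and Ctnna3) and in none (Tenm4 and Slit3). Capitals mark each CG, read 5′ to 3′ along the gene's strand.
Cntn6, chr6:104492794-104493093, + strand: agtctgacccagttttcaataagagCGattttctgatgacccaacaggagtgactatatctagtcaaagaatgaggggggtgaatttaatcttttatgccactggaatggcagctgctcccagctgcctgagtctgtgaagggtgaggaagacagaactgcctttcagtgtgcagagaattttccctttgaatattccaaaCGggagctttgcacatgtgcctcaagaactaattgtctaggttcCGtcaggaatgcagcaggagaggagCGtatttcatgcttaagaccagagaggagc
Cdh7, chr1:109982650-109982949, + strand: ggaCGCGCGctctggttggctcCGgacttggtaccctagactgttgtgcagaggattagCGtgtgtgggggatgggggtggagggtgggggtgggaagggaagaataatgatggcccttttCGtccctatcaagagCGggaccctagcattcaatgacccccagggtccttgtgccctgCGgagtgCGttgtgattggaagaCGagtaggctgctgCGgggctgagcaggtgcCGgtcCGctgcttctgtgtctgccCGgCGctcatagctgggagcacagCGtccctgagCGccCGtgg
Lrrtm1, chr6:77242227-77242526, + strand: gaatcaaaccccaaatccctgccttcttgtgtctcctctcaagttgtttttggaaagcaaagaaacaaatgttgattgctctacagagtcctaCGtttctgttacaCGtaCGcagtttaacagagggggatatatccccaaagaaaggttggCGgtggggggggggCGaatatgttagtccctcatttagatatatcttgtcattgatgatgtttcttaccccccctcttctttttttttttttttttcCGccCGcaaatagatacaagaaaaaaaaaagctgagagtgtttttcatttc
Ctnna3, chr10:63429848-63430147, + strand: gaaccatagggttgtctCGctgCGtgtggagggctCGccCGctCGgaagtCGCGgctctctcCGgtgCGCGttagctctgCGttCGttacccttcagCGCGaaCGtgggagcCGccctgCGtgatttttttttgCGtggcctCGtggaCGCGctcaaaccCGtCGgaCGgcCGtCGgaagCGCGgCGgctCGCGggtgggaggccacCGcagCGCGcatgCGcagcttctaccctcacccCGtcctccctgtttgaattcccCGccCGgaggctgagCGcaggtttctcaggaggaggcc
Tenm4, chr7:96170994-96171293, + strand: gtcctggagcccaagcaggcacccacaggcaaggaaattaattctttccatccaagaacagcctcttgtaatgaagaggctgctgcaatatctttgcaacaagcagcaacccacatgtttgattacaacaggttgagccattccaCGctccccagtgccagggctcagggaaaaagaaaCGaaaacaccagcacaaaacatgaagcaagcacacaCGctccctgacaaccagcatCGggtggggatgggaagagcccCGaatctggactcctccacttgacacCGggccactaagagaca
Slit3, chr11:35121206-35121505, + strand: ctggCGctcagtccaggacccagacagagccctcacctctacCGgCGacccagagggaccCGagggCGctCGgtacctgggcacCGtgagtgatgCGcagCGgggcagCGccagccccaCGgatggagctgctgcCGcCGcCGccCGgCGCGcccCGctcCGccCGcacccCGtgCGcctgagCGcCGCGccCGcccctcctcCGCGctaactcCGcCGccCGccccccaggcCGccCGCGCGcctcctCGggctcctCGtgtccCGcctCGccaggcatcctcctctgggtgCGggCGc
These windows held 4 CG (Cntn6), 18 (Cdh7), 7 (Lrrtm1), 39 (Ctnna3), 6 (Tenm4) and 41 (Slit3). Slit3 and Ctnna3 thus have CG-dense starts, and Cntn6, Tenm4 and Lrrtm1 have CG-poor ones. Over all 32619 RefSeq windows of the same length, 94.7% held at least 1 CG and 43.8% held at least 10. The letters CG read the same on both strands.

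To ask where these genes stood with EHMT2 present, the DMSO sets were read first. In mESC DMSO, the median body share over the 47 genes was 97.8%, and in 2CLC DMSO it was also 97.8%. The median was 0% in both sets over all protein-coding genes and over the other 2443 genes of at least 100 kb. At least 50% of the body lay in domains for 42 listed genes in mESC DMSO, where 23.1% of all protein-coding genes and 30.5% of genes of at least 100 kb reached this, and for 40 in 2CLC DMSO (23.5% and 28.4%). Most of the listed genes were thus covered over nearly their whole length in both cell states. After dTAG-13, the median body share was 68% in mESCs and 62% in 2CLCs, with 33 (22.5% of all genes, 20.7% of long ones) and 28 (25% and 22.4%) of the listed genes at 50% or more.

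Much of this high coverage was shared by other genes of the same length. Among genes of at least 1000 kb, the 17 listed ones had a median body share of 97.8% in mESC DMSO and the 42 others 93.1%. The same classes had 82.0% and 58.5% in mESC dTAG, and 65.9% and 45.9% in 2CLC dTAG. Between 500 kb and 1000 kb, the medians in mESC DMSO were 90.4% for 18 listed genes and 77.9% for 153 others, and in 2CLC dTAG 21.7% for the listed genes and 33.2% for the others. Between 200 kb and 500 kb the lists stood further apart in mESC DMSO, at 99.1% for 7 listed genes and 18.7% for 761 others. The listed genes therefore had the higher median in every one of these comparisons except 2CLC dTAG at 500 to 1000 kb.

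Gene starts were in domains less often than gene bodies. In mESC DMSO, 29 of 47 starts lay in a domain (22.3% of all protein-coding genes, 23.2% of those of at least 100 kb), and in mESC dTAG 22 did (23.6% and 21.8%). In 2CLCs these counts were 30 in DMSO (23.2% and 24.8%) and 22 in dTAG (26.5% and 24.4%). Beside unlisted genes of at least 500 kb the distance was smaller in mESC DMSO, but this did not hold in every set or length class. Between 500 kb and 1000 kb, 10 of 18 listed starts were in mESC DMSO domains and 45.1% of the others, and 7 of 18 in each dTAG set, against 41.8% in mESCs and 39.2% in 2CLCs. From 1000 kb on, 10 of 17 listed starts and 50% of the others were in mESC DMSO domains, and 10 of 17 and 33.3% in 2CLC dTAG. In 2CLC DMSO, 14 of 17 listed starts from 1000 kb on and 45.2% of the others were in domains. Between 200 kb and 500 kb, 5 of 7 listed starts were in mESC DMSO domains, against 25.4% of the others. Between 100 kb and 200 kb these were 3 of 4 and 17.9%. A start outside domains beside a body at 50% or more was seen for 13 genes in mESC DMSO (2.4% of all genes, 11.9% of long ones), 12 in mESC dTAG (2.28% and 7.51%), 12 in 2CLC DMSO (2.2% and 9.04%) and 13 in 2CLC dTAG (2.71% and 8.12%). The gaps at such starts were mostly narrow in DMSO, with a median of 10 kb over 12 genes in mESCs and 17.5 kb over 12 in 2CLCs, and the median was wider in dTAG, with 85 kb over 12 and 40 kb over 13. The widest single gaps were in DMSO, at 4540 kb in mESCs and 2940 kb in 2CLCs against 500 kb and 155 kb in dTAG. Gaps of at most 50 kb numbered 10 of 12 in mESC DMSO and 3 of 12 in mESC dTAG, and 8 of 12 and 7 of 13 in 2CLCs. Dscam, whose start has no further domain towards the chromosome end in mESC DMSO, has no gap width there. Domains lie on a grid of 5 kb steps, and 41 of 47 starts in mESC DMSO were in or within 5 kb of a domain, so a start outside a domain was often close to its edge. In the unnamed set, 36 starts lay in domains (30% of all genes, 40.1% of long ones), 43 genes had 50% or more of the body in domains (30.9% and 48.3%), and 10 of those had the start outside (3.42% and 13.8%).

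**Figure D1:**
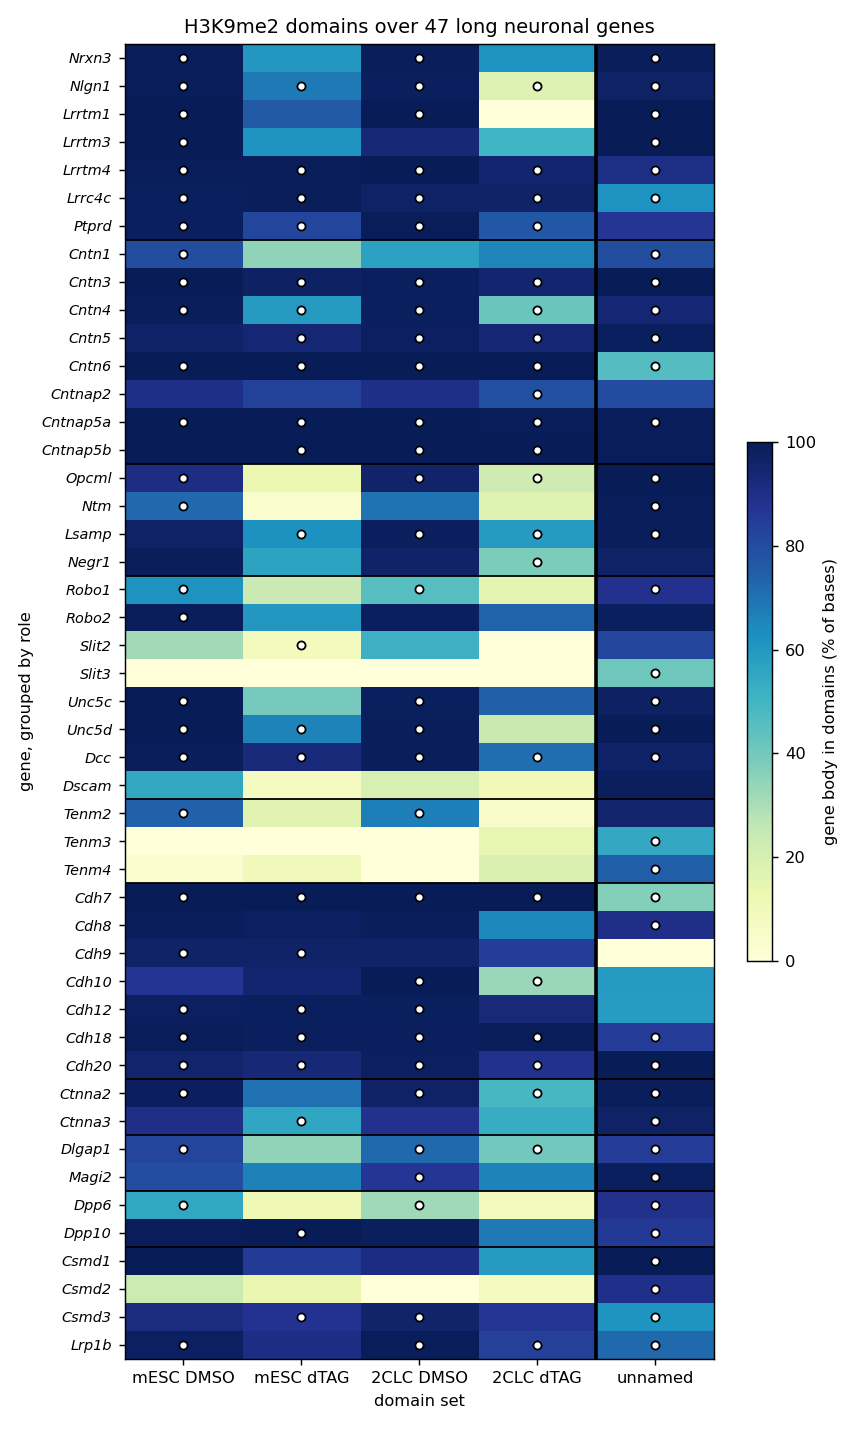
Body share of each of the 47 genes (rows, grouped by role) in the 4 sorted sets and the unnamed set (columns), with colour giving the percent of bases in H3K9me2 domains and a white point marking a gene start inside a domain. The DMSO columns are dark for most genes (median 97.8% in both states) and the dTAG columns lighter (68% in mESCs, 62% in 2CLCs), while Slit3, Tenm3 and Tenm4 are pale in all 4 sorted sets.

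By the pattern of their starts over the 4 sorted sets, 12 genes had the start in a domain in all (15.1% of all protein-coding genes, 8.92% of those of at least 100 kb), 7 in none (65.8% and 59.5%) and 28 in some (19.1% and 31.6%). Starts in all 4 sets were those of Nlgn1, Lrrtm4, Lrrc4c, Ptprd, Cntn3, Cntn4, Cntn6, Cntnap5a, Dcc, Cdh7, Cdh18 and Cdh20. The start is the annotated first base of the gene, which need not be that of a protein-coding transcript. For Ptprd the nearest such transcript start lies 1618 kb into the gene, and it too was in domains in all 4 sets. Starts in none were those of Slit3, Dscam, Tenm3, Tenm4, Cdh8, Csmd1 and Csmd2. Of the 28 others, Nrxn3, Lrrtm1, Robo1, Unc5c, Tenm2 and Dpp6 had the start in a domain in both DMSO sets and in neither dTAG set. The opposite, both dTAG sets without either DMSO set, was not seen for any listed gene. How often either pattern occurs over all genes was not counted, so neither is read as particular to the list.

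Around the starts, the domains thinned out. Over the 46 listed genes of at least 100 kb, the mean share of bases in mESC DMSO domains was 91.3% between 100 and 95 kb upstream, 62.6% in the first 5 kb downstream of the start and 87.0% between 95 and 100 kb downstream. In 2CLC DMSO the same steps gave 89.1%, 61.2% and 83.7%. The dip was narrow in DMSO, since 10 to 15 kb into the gene the share was back at 77.4% in mESCs and 76.7% in 2CLCs. In mESC dTAG it was broad, with 82.6% far upstream, 49.6% at the start, 50% at 10 to 15 kb and 61.6% at 95 to 100 kb into the body. In 2CLC dTAG the values were 80.8%, 50.5%, 62.9% and 54.4%. After dTAG-13 the upstream side was thus higher than the gene body in both states.

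**Figure D2:**
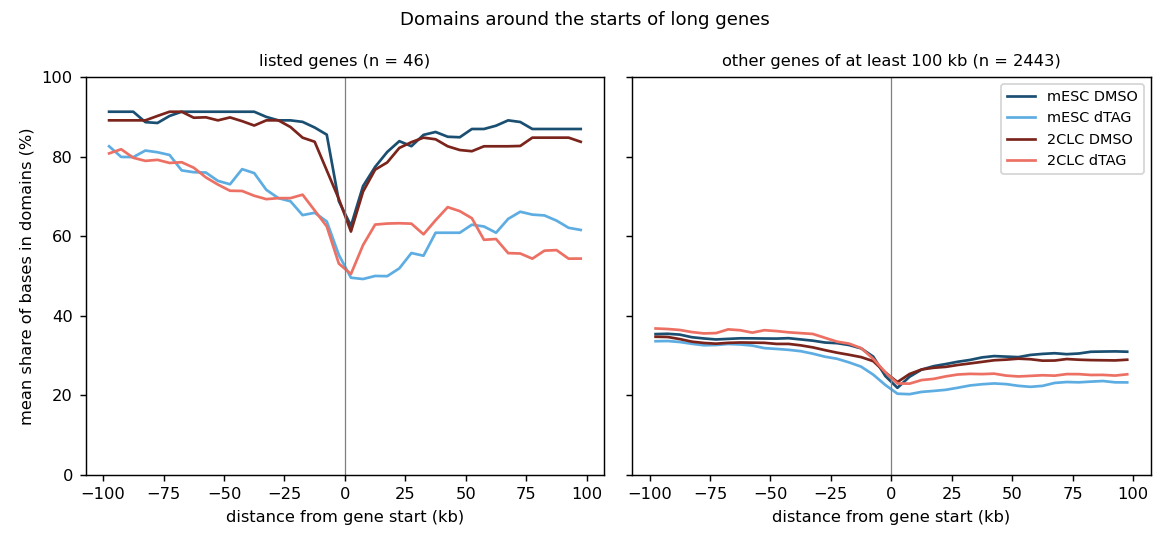
Mean share of bases in domains (percent) in 5 kb steps from 100 kb before to 100 kb after the gene start, in the direction of transcription, for 46 listed genes of at least 100 kb (left) and 2443 other genes of at least 100 kb (right), with a line for each sorted set. The listed genes sit far above the others in all 4 sets and dip at the start, to 62.6% in mESC DMSO and 49.6% in mESC dTAG. The other genes dip at the start as well, to 21.9% in mESC DMSO.

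To ask how the domain coverage of these genes differed with EHMT2 depletion, the body share in dTAG was compared with that in DMSO within each cell state. A difference of 10 percentage points was called, which is a rule of size and not a test. In mESCs, 25 of 47 genes were lower by at least 10 points in dTAG (8.56% of all protein-coding genes, 26% of those of at least 100 kb) and 0 were higher (8.65% and 12.9%), with a median difference of -13.2 points. In 2CLCs, 29 were lower (7.42% and 22.9%) and 2, Tenm3 and Tenm4, were higher (11.1% and 17.7%), with a median of -22.97 points. The median difference over all protein-coding genes, and over the other genes of at least 100 kb, was 0 in both states. Unlisted genes of like length were lower with dTAG-13 too. From 1000 kb on, the median difference in mESCs was -14.63 points for the listed genes and -14.97 for the others, and in 2CLCs -28.25 and -13.94. Between 500 kb and 1000 kb it was -20.9 and -11.02 in mESCs, and -16.22 and -5.06 in 2CLCs. A low body share cannot get much lower, and most of the comparison genes had one in DMSO.

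With that in view, only the bases in DMSO domains were followed. For the 44 listed genes with at least 10% of the body in mESC DMSO domains, a median of 75.9% of those bases also lay in mESC dTAG domains, and 61.1% did for the 1089 genes of at least 100 kb under the same condition. In 2CLCs the medians were 69.2% over 43 listed genes and 68.6% over 1039 genes. Read per covered base, the listed genes therefore did not have lower medians than long genes at large in either state. In length, listed gene bodies held 36388 kb of domains in mESC DMSO and 27378 kb in mESC dTAG, and 35573 kb and 24805 kb in 2CLCs.

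Both cell states showed the lower share for 22 genes (3.97% of all protein-coding genes, 15.9% of those of at least 100 kb). In 3 genes mESCs alone passed 10 points (4.59% and 10.1%), namely Cntn1, Dscam and Csmd2. In 7 genes 2CLCs alone did (3.45% and 6.99%), namely Cntnap2, Dcc, Cdh8, Cdh9, Cdh10, Dpp10 and Lrp1b. The other 15 genes were not lower by 10 points in either state (88% and 67.1%), and 10 of them had at least 90% of the body in domains in all 4 sets (13.2% and 5.02%; Lrrtm4, Lrrc4c, Cntn3, Cntn5, Cntn6, Cntnap5a, Cntnap5b, Cdh7, Cdh12 and Cdh18). These counts follow from single lists, and whether a state-specific call would recur in another culture was not tested.

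**Figure D3:**
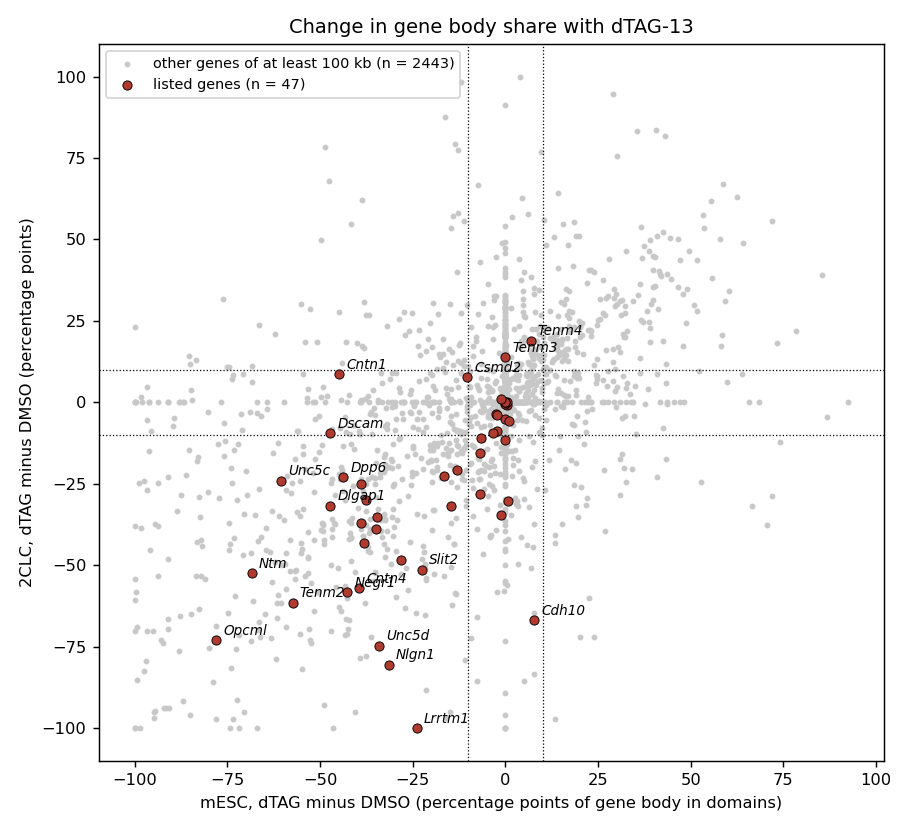
Difference in body share, dTAG minus DMSO in percentage points, in mESCs (horizontal) and 2CLCs (vertical) for the 47 listed genes (red points, selected names) and 2443 other genes of at least 100 kb (grey). Dotted lines mark 10 points in either direction. Most listed genes lie at or below 0 on both axes, from Opcml at -77.97 and -73.05 to Cntn6 and Cdh7 at 0 on both, and 22 lie beyond -10 points on both.

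The synapse organizers are the proteins that meet across the cleft. Nrxn3 (chr12:88722876-90334935, + strand, 1612 kb), a presynaptic neurexin, had 99.4% of its body in mESC DMSO domains and 60.4% in mESC dTAG domains, and in 2CLCs 99.1% in DMSO and 62.0% in dTAG. The mESC DMSO domain over its start, chr12:88712011-88987009 and 275 kb wide, held no mESC dTAG domain, and the first 479.1 kb of the gene were uncovered in mESC dTAG. Nlgn1 (chr3:25426215-26332460, - strand, 906.2 kb), whose product is a postsynaptic partner of neurexins, had 99.5%, 68.0%, 98.3% and 17.8% in the same order. Its start stayed in a domain in all 4 sets, but in 2CLC dTAG an uncovered stretch of 745.0 kb followed from 72.98 kb into the gene. The gap between the depleted states was therefore wide for Nlgn1, at -50.2 points in 2CLC against mESC, while the DMSO sets differed by -1.1 points.

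The LRRTMs are postsynaptic leucine-rich repeat proteins that also bind neurexins. Lrrtm1 (chr6:77242689-77257791, + strand, 15.1 kb), the shortest gene listed, lay wholly in domains in both DMSO sets (100%), at 76.1% in mESC dTAG and at 0% in 2CLC dTAG. Lrrtm3 (chr10:63928472-64090277, - strand, 161.8 kb) had 100%, 61.8%, 93.6% and 50.3% in DMSO and dTAG in mESCs and then in 2CLCs, the order used from here on, with its start in a domain only in mESC DMSO. By contrast, Lrrtm4 (791.3 kb) and Lrrc4c (1313 kb), which encodes a netrin-G ligand, had body shares between 94.9% and 100% in all 4 sets. Ptprd (chr4:75941238-78211961, - strand, 2271 kb), a receptor tyrosine phosphatase and the longest gene listed, had 98.7%, 82.0%, 99.3% and 76.7%, and its body was touched by 5 domains in mESC DMSO and by 11 in mESC dTAG. Of the 7 synapse organizers, 5 were lower by at least 10 points in both states and 2 in neither.

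The contactins are immunoglobulin-type adhesion proteins held to the membrane by a lipid anchor, and the CNTNAP proteins are their membrane-spanning partners. Most of these genes were covered alike in all 4 sets. Cntn3, Cntn5, Cntn6, Cntnap5a and Cntnap5b had body shares from 94.0% to 100%, and the body of Cntn6 was covered in full in every sorted set. The start of Cntn5 (chr9:9660891-10904775, - strand, 1244 kb) was outside domains only in mESC DMSO, in a gap of 10 kb, and that of Cntnap5b (chr1:99772765-100485942, + strand, 713.2 kb) likewise in a gap of 5 kb. Cntn4 (chr6:105677660-106699310, + strand, 1022 kb) was the exception in both states, with 99.0%, 59.6%, 98.5% and 41.5%. Cntn1 (chr15:92051165-92341967, + strand, 290.8 kb), known from the axon-glia junction next to the node of Ranvier, had 79.4% in mESC DMSO domains and 34.4% in mESC dTAG domains, and in 2CLCs 56.7% in DMSO and 65.3% in dTAG. It was lower with dTAG-13 in mESCs and slightly higher in 2CLCs, by 8.6 points. Cntnap2 (chr6:45059357-47304213, + strand, 2245 kb), whose product gathers potassium channels along myelinated axons, had 89.98%, 83.3%, 89.98% and 78.9%, and its start was in a domain in 2CLC dTAG alone.

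The IgLON genes, which encode small lipid-anchored adhesion proteins of neurons, showed some of the widest differences on the list. The 4 differences ran from -77.97 to -34.94 points in mESCs and from -73.05 to -38.99 points in 2CLCs. Opcml (chr9:27790775-28925410, + strand, 1135 kb) had 90.8% in mESC DMSO domains and 12.8% in mESC dTAG domains, and in 2CLCs 96.0% in DMSO and 23.0% in dTAG. From 235.8 kb into the gene to its end, 898.8 kb were uncovered in mESC dTAG, and 858.8 kb from 275.8 kb on in 2CLC dTAG. What was left in domains was the first part of the gene.

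Ntm (chr9:28994750-29963141, - strand, 968.4 kb), the next gene on chromosome 9 and on the other strand, had 72.6%, 4.13%, 69.9% and 17.6%. The far ends of both genes were joined in mESC DMSO by a domain of 665 kb (chr9:28646586-29311584) that held no mESC dTAG domain and was covered to 18.1% by 2CLC dTAG domains. In 2CLC DMSO a domain of 455 kb (chr9:28576586-29031585) joined them, and 0% of it lay in dTAG domains of either state. The lower shares of Opcml and Ntm thus rest in part on the same stretch and not on separate domains. Lsamp (chr16:39984361-42181679, + strand, 2197 kb) differed in form, with 97.2%, 62.2%, 98.2% and 59.2%, since its body was touched by 4 domains in mESC DMSO and by 15 in mESC dTAG, the most of any listed gene in any sorted set, and by 8 and 12 in 2CLCs. Negr1 (chr3:156561794-157316445, + strand, 754.7 kb) had 99.0%, 56.3%, 96.3% and 38.1%, and its last 177.1 kb in mESC dTAG and 272.1 kb in 2CLC dTAG were uncovered.

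**Figure D4:**
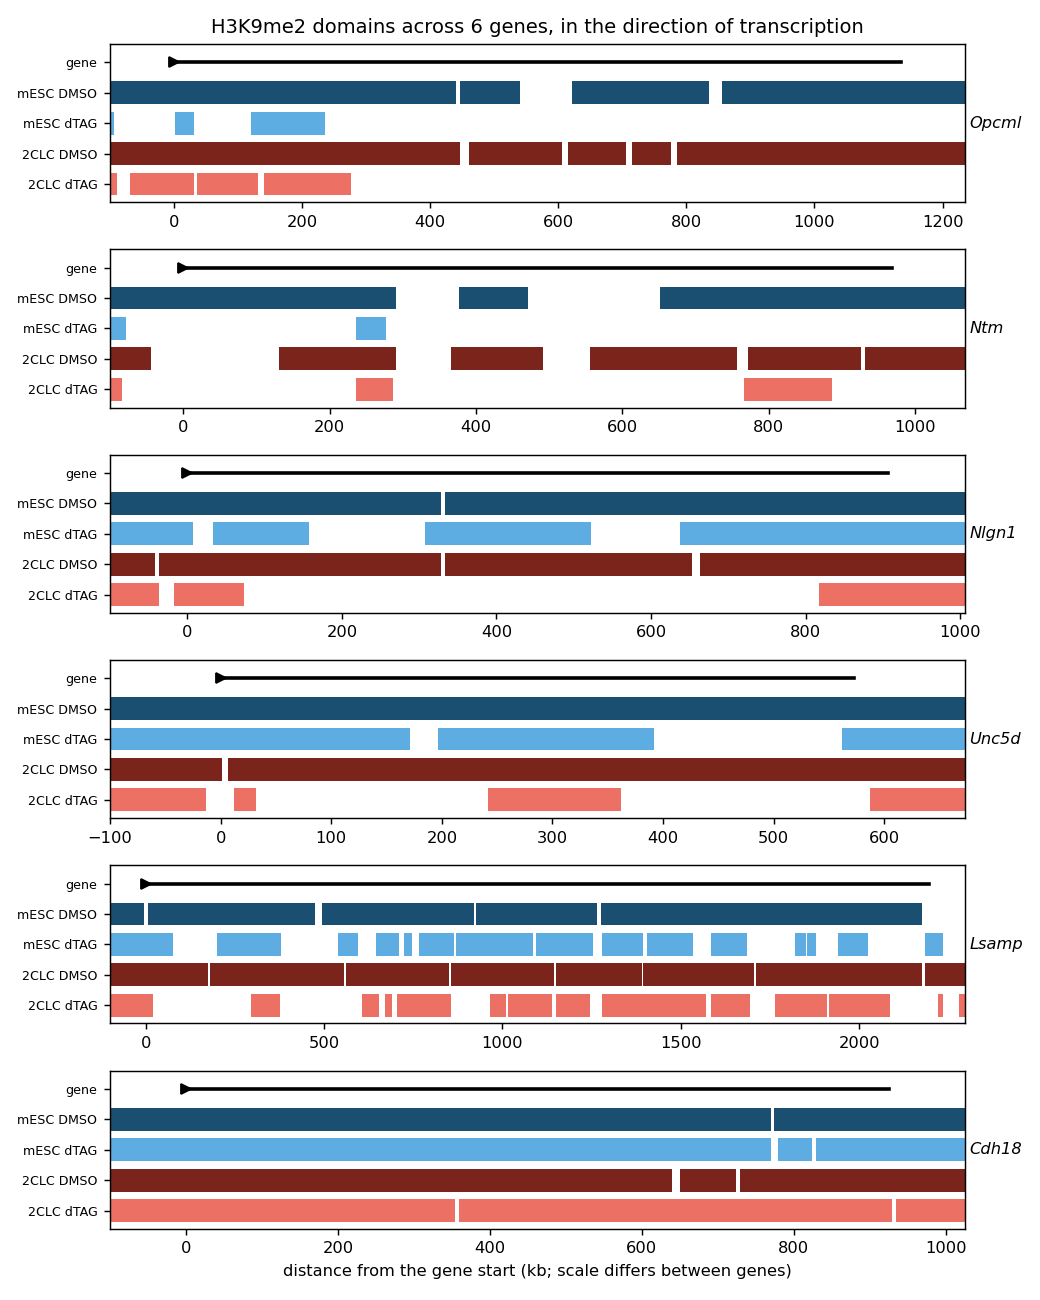
Domains (bars) of the 4 sorted sets across 6 listed genes, in kb from the gene start in the direction of transcription, with the gene as a black line and 100 kb on each side. In dTAG, Opcml and Ntm are bare over most of their length, and Nlgn1 is bare in the middle in 2CLCs in particular. Unc5d in 2CLC dTAG is mostly bare on both sides of a piece from 241.7 to 361.7 kb. Lsamp is broken into up to 15 pieces in dTAG, and Cdh18 is covered to at least 98.4% in all 4 sets.

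Guidance genes ran from no coverage to nearly full coverage in DMSO. Among the SLIT ligands, Slit3 (chr11:35121224-35708507, + strand, 587.3 kb) had no base in domains in any sorted set, with the nearest domain 11.44 kb from its start in 2CLC DMSO and over 100 kb away in the other sorted sets. Slit2 (chr5:47983138-48307733, + strand, 324.6 kb) had 31.3% in mESC DMSO domains and 8.65% in mESC dTAG domains, and in 2CLCs 51.3% in DMSO and 0% in dTAG. Of their receptors, Robo2 was covered more widely than either ligand in both DMSO sets, and Robo1 in mESC DMSO alone. Robo1 (chr16:72308306-73046095, + strand, 737.8 kb) had 61.4%, 23.7%, 45.6% and 15.6%, and Robo2 (chr16:73891839-74411825, - strand, 520 kb) had 99.0%, 60.2%, 98.7% and 73.7%. Robo1 has another start in RefSeq, 354.8 kb into the gene, which lay outside domains in all 4 sorted sets while the annotated first base was in domains in both DMSO sets. Robo2 has RefSeq starts 680945 and 1035468 bp upstream of its annotated first base, each in domains in 3 of the 4 sorted sets. Its values here thus describe the shorter annotated gene.

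The netrin receptors DCC, for attraction, and UNC5, for repulsion, began from near full coverage. Unc5c (chr3:141465216-141834924, + strand, 369.7 kb) had 99.8%, 39.2%, 98.5% and 74.4%, so that the difference with dTAG-13 was larger in mESCs (-60.6 points) than in 2CLCs (-24.1 points). Unc5d (chr8:28646717-29219636, - strand, 572.9 kb) went the other way, with 100%, 66.0%, 99.1% and 24.4%, or -34.0 points in mESCs and -74.7 in 2CLCs. Dcc (chromosome 18, 1097 kb) had 99.1%, 92.2%, 99.1% and 70.8%. Dscam (chr16:96590840-97170752, - strand, 579.9 kb), an immunoglobulin receptor by which neurites recognise and avoid each other, had 55.0% in mESC DMSO and 19.8% in 2CLC DMSO, the only listed gene 25 points or more apart between the DMSO sets, and 7.76% and 10.3% in dTAG. The state with the larger difference thus varied from receptor to receptor.

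Teneurins are transmembrane proteins that bind latrophilins across synapses, and the 3 listed ones did not look alike. Tenm2 (chr11:36006656-37235964, - strand, 1229 kb) had 74.1% and 66.8% in the DMSO sets, and 16.7% and 5.29% in dTAG in mESCs and 2CLCs. Tenm3 (chr8:48227682-48843951, - strand, 616.3 kb) had no base in domains in both DMSO sets and mESC dTAG, and 13.8% in 2CLC dTAG. Tenm4 (chr7:96171246-96911093, + strand, 739.8 kb) had 2.7%, 9.46%, 0% and 18.9%. Tenm3 and Tenm4 are the 2 listed genes with a share at least 10 points higher in dTAG, both in 2CLCs.

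The listed type II cadherins, of a family that sorts neurons by like-to-like adhesion, stood at the other extreme. In mESCs none of the 7 was lower by 10 points, and their dTAG body shares ran from 93.4% to 100%. In 2CLCs, Cdh7, Cdh12, Cdh18 and Cdh20 were within 10 points, and 3 were lower. Cdh10 (chr15:18818947-19014236, + strand, 195.3 kb) had 87.3%, 95.0%, 100% and 33.2%, and its last 130.5 kb were uncovered in 2CLC dTAG. Cdh8 (chr8:99024471-99416471, - strand, 392 kb) had 99.1%, 97.8%, 99.1% and 64.6%, and its start lay outside domains in every sorted set, in a gap of 10 kb in 3 of them and of 145 kb in 2CLC dTAG. Cdh9 (chr15:16728756-16857094, + strand, 128.3 kb) had 96.1%, 96.1%, 96.1% and 84.5%, and its start was in a domain in both mESC sets and 0.042 kb outside in both 2CLC sets. The annotated first base of Cdh12 (chr15:20449265-21589533, + strand, 1140 kb) left its domain only in 2CLC dTAG, by 4.445 kb. Its 2 protein-coding transcript starts lie 660.9 and 662.2 kb into the gene. They were outside domains in 2CLC DMSO alone, so the pattern of this gene depends on the start used. Cdh7 (chr1:109982431-110140157, + strand, 157.7 kb) lay wholly inside domains of at least 4820 kb in all 4 sets, and in 2CLC DMSO the same 11475 kb domain held Cntnap5a. Unlisted type II cadherins did not all hold their coverage in mESCs. With dTAG-13, Cdh5 differed by -93.27 points and Cdh6 by -51.75 points there. Cdh11 and Cdh19 differed by 0, and Cdh22 and Cdh24 had no base in sorted domains.

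The alpha-catenins tie cadherins to actin. Ctnna2 (chr6:76881637-77979699, - strand, 1098 kb), the neuronal form, had 98.2%, 70.1%, 96.8% and 48.6%, and Ctnna3 (chr10:63430098-65003667, + strand, 1574 kb) had 89.8%, 55.2%, 88.6% and 53.3%. Both were lower with dTAG-13 in both states (-28.09 and -34.65 points in mESCs, -48.24 and -35.27 in 2CLCs). The start of Ctnna3 lay in a domain in mESC dTAG although its body share was lower there, since the first 159.8 kb were uncovered in mESC DMSO and a domain of 45 kb lay over the start in mESC dTAG. Lrrtm1 and Lrrtm3, which lie within these genes, share part of these values.

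Scaffold proteins of the postsynaptic density were lower in both states as well. Dlgap1 (chr17:69969073-70821413, + strand, 852.3 kb) had 81.9%, 34.6%, 71.9% and 40.2%, and Magi2 (chr5:19227036-20704792, + strand, 1478 kb) had 79.5%, 66.3%, 86.6% and 65.9%. The start of Magi2 was in a domain in 2CLC DMSO alone. The potassium channel subunits differed from each other. Dpp6 (chr5:26817203-27727505, + strand, 910.3 kb) had 54.8%, 11.0%, 31.8% and 8.79%, while Dpp10 (chr1:123321471-124045559, - strand, 724.1 kb) had 99.2%, 100%, 98.5% and 68.2%. Dpp10 was therefore lower in 2CLCs alone, with a bare stretch of 180.0 kb that began 225.5 kb into the gene.

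The CSMD genes encode large membrane proteins with CUB and sushi repeats, and LRP1B belongs to the lipoprotein receptor family. Csmd1 (chr8:15892537-17535586, - strand, 1643 kb) had 99.8%, 85.2%, 91.0% and 59.4%, and its start was outside domains throughout. Csmd3 (chr15:47580637-48792063, - strand, 1211 kb) had 91.5%, 88.0%, 95.9% and 86.5%, and Lrp1b (chr2:40595246-42653624, - strand, 2058 kb) had 97.8%, 91.0%, 99.3% and 83.7%. These 3 genes were covered over most of their length in every set. Csmd2 (chr4:127987857-128567656, + strand, 579.8 kb) was not, with 23.3%, 12.9%, 0% and 7.76%.

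The pieces show what form the lower shares took. The median number of domains touching a listed gene body was 2 in both DMSO sets and 3 in both dTAG sets, and the median of the longest uncovered stretch was 14.77 kb and 143.3 kb in mESC DMSO and dTAG, and 10.0 kb and 190 kb in 2CLCs. Of 108 mESC DMSO domains that touched listed genes, 22 shared no base with a mESC dTAG domain and 61 overlapped 2 or more. These are 20.4% and 56.5%, against 14.4% and 33.6% of all mESC DMSO domains and 16.6% and 37.6% of those that touched other genes of at least 100 kb. Of 116 in 2CLC DMSO, 16 (13.8%) shared none and 73 (62.9%) overlapped 2 or more, against 11.7% and 35.2% of all and 13.3% and 40.6% beside other long genes. The domains of the listed genes were wider, with a median of 360 kb in mESC DMSO against 140 kb over all and 160 kb beside other long genes, and the part of width in these shares was not tested. Many reach far beyond the genes, so a domain that overlapped several others need not be interrupted over a listed gene, as Cdh7 and Cntnap5a show, whose mESC DMSO domains overlapped 3 and 2 mESC dTAG domains.

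The sequence next to the genes differed less than the genes. Over the 42 listed genes with at least 50% of the body in mESC DMSO domains, the median difference with dTAG-13 was -15.7 points in the body and 0 in the 200 kb on either side. Over the 40 such genes in 2CLCs it was -26.6 points in the body, 0 upstream and -0.95 downstream. The same order was seen in other genes of at least 100 kb chosen in the same way, with -28.1 points in the body, -2.5 upstream and -4.07 downstream over 718 genes in mESCs, and -21.2, -2.5 and -2.5 over 668 genes in 2CLCs. The body was lower by at least 10 points more than both flanks for 11 of 42 listed genes in mESCs, or 26.2%, against 37.5% of the other long genes, and for 17 of 40, or 42.5%, against 41.9% in 2CLCs. A body that differed more than its surroundings was therefore not particular to the listed genes, and a body longer than its flanks spans more domains. The genes were also chosen for a high body share in DMSO and the flanks were not, which by itself favours a lower body in dTAG. Over all 47 genes, the median share in mESC DMSO and dTAG was 97.8% and 68.0% in the body. Upstream it was 100% and 98.1%, and downstream 100% and 96.6%. In 2CLCs the same medians were 97.8% and 62.0%, 100% and 96.8%, and 100% and 83.1%.

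Starts differed as well. In mESCs, 14 starts that were in a DMSO domain were outside dTAG domains (5.08% of all protein-coding genes, 10.2% of those of at least 100 kb), and 7 entered a domain (6.32% and 8.8%). In 2CLCs, 10 left (4.25% and 9.4%) and 2, of Cntnap2 and Negr1, entered (7.52% and 8.96%). When a start also counted as inside up to 5 kb from a domain, 12 and 9 left, and 2 and 0 entered. The number that left was thus close under both rules, and the number that entered was not.

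To ask whether 2CLCs differ from mESCs over these genes, the states were compared under each treatment. In DMSO, 5 genes were lower by at least 10 points in 2CLCs (5.15% of all protein-coding genes, 14.6% of those of at least 100 kb) and 2, Slit2 and Cdh10, were higher (5.79% and 11.7%), with a median difference of -0.31 points. In dTAG, 14 were lower in 2CLCs (5.62%; 10.4% of genes of at least 100 kb) and 6 were higher (10% and 17.7%), namely Cntn1, Opcml, Ntm, Robo2, Unc5c and Tenm3, with a median of -3.04 points. Lower by at least 25 points in 2CLC dTAG, a limit at which other genes were not counted, were Lrrtm1, Cdh10, Nlgn1, Unc5d, Cdh8, Dpp10 and Csmd1. Of the starts, 5 in mESC DMSO domains were outside 2CLC DMSO domains (3.1% of all protein-coding genes, 6.75% of long ones) and 6 showed the reverse (3.99% and 8.4%). Between the dTAG sets these counts were 7 (3.32% and 6.07%) and 7 (6.24% and 8.64%). The body shares of the cell states were therefore close over most of the list in DMSO and further apart in dTAG, mainly with lower shares in 2CLCs. The genes higher in 2CLC dTAG were 12.8% of the list, below the 17.7% of genes of at least 100 kb.

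Base composition, which the choice of genes did not use, ran with the body share. The bodies of the listed genes had a median GC content of 38.5%, from 35.05% to 47.96%, and the other genes of at least 100 kb had 42.4%. In 12 genes under 37% GC, among them Lrrc4c, Cntn6, Lrp1b and 6 of the 7 type II cadherins, the median body share in mESCs was 98.6% with DMSO and 97.0% with dTAG-13, a median difference of -0.54 points. In 14 genes of 40% GC or more, among them Opcml, Ntm, Slit3, Dscam, the teneurins and Dpp6, it was 73.4% and 12.9%, with a median difference of -36.1 points. The 2CLC medians were 98.9% and 85.5% in the first class, and 68.4% and 15.7% in the second. In 2CLCs the median differences were -10.52 points under 37% GC, -30.38 and -22.39 in the classes of 37 to 38% and 38 to 40%, and -31.66 at 40% or more, so they did not follow GC step by step. In other genes of at least 100 kb the level ran the same way in mESC dTAG. Its medians were 76.9% in 101 genes under 37% GC and 0% in 1801 genes of 40% or more. The median difference with dTAG-13 in these genes was 0 in every class in mESCs. In 2CLCs it was -4.4 points under 37% GC and 0 at 40% or more. At 40% or more, their median body share was already 0% in both DMSO sets, against 93.45% under 37% GC in mESC DMSO. It had no room to fall there, so these medians do not show whether the difference runs with GC in other long genes. The soft-masked share of the bodies, which marks repeats, moved with these classes (median 34.3% under 37% GC and 20.1% at 40% or more), and its part in the result was not tested. The class limits were set after the values were seen.

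Promoter CG content ran the same way genome-wide and less clearly on the list. Over all RefSeq windows the median CG count was 2 for starts in domains in all 4 sorted sets, 5 for some and 12 for none. Of the listed genes, 39 matched a RefSeq window, and 29 had one within 1000 bp of the annotated start. Their median CG count was 10 for 6 genes in all 4 sets, 15 for 19 in some and 23.5 for 4 in none, with ranges of 4 to 18, 7 to 39 and 6 to 41. The ranges overlap, as the CG-poor window of Tenm4, in no domain, and the CG-dense one of Ctnna3, in a domain in mESC dTAG, show above.

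**Figure D5:**
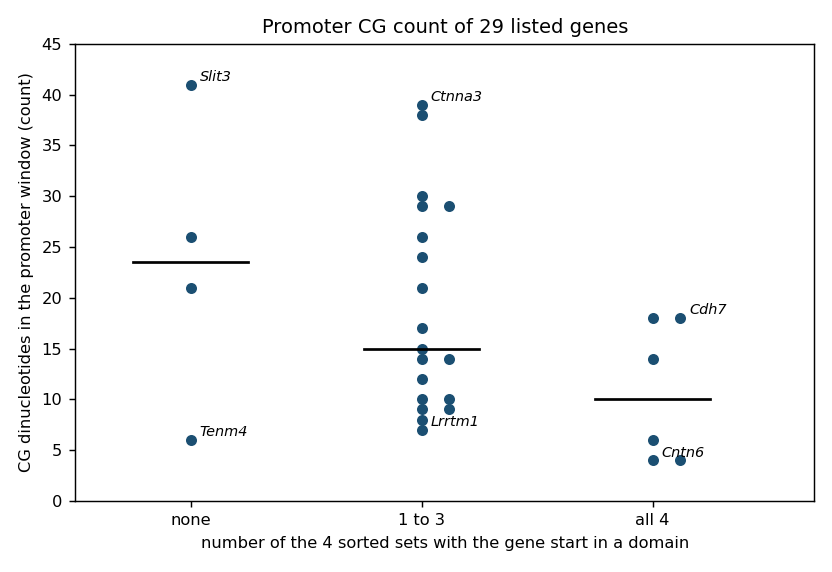
CG dinucleotides in the 300-base promoter window (count) of 29 listed genes with a RefSeq window within 1000 bp of the annotated start, by the number of sorted sets in which the start was in a domain, with a bar at the median (23.5, 15 and 10). The 3 classes overlap, and the genes whose windows are printed are named.

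Relatives of the same families, 41 genes named by family with earlier results of these data known, mostly lacked domains. Their starts were in domains in 5 cases in mESC DMSO, 3 in mESC dTAG and 5 in each 2CLC set, and the median body share was 0% in every sorted set. They are shorter, with a median of 89.26 kb, and richer in GC, with a median of 49.1%. Of the 20 relatives of at least 100 kb, 4 starts were in mESC DMSO domains. The median body share of these 20 was also 0% in every sorted set, and their median length was 165.8 kb. The relatives that lay in domains were again mainly long, such as Cntnap5c (640.8 kb), at 99.2% or more in all 4 sets. Magi1 (608.5 kb) and Dscaml1 (327.1 kb) are long as well and, like several shorter relatives of at least 100 kb, had no base in domains in any sorted set.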

How the data were processed

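H3K9me2 ULI-NChIP and input libraries were aligned to mm10 by the authors with STAR in a mode that places reads with several matches, without duplicates and high-signal regions, and coverage was given per genome content (RPGC). Per the study's methods, means over windows on a 5 kb step gave a log2 ratio against input, and domains were grown from bins above an upper percentile until a bin below a lower one. Whether replicates were pooled was not stated. The submitters' processing notes name STAR 2.7.10, Picard 2.26.0, SAMtools 1.14, bedtools 2.30.0, deepTools 3.5.1 and R 4.1.2. The deposited files hold domain positions (chromosome, start and end, with a score of 0 throughout) and no counts, so depth and precision are unknown.

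Overlaps with gene bodies and starts (GENCODE M21, GRCm38) were computed base by base in Python 3.11.15 with numpy 2.4.6, and the overlap functions were tested on simulated intervals. Promoters came from RefSeq on GRCm38.p6. All 4 sorted sets were grouped by the names of the lists, and the 5th was assigned to no group. There were 0 unused columns of sample values. With a single list per condition, differences of at least 10 points were called by size. Described in full were genes with starts in some of the 4 sets, genes with a difference of at least 25 points between any paired sets, the 3 longest, the 3 shortest and those with the lowest body share. The genes, their relatives and the lists were chosen with earlier results of these data known. Alternatives were minimum domain width (50 kb), trimming (5 kb), closing of gaps (10 kb), starts within 5 kb, the longest transcript, size limits of 5 and 20 points, and leaving out nested or short genes.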

Additional observations from a re-analysis of the deposited data

Results flagged for a closer look

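Body shares of 3 genes differed in opposite directions between dTAG-13 and DMSO in mESCs and 2CLCs and lay at least 25 points apart. How often other genes do so was not counted, so the pattern is not read as particular to the list. It was also seen in unlisted long genes, such as Abcb11 (71.88 points in mESCs, -28.75 in 2CLCs) and Armc4 (-11.92 and 98.41). In each of the 3 listed genes, the positive difference was too small to be called by the size rule used above. Each value comes from a single list per condition, and the difference between the states was not tested. For Cntn1, a contactin, dTAG minus DMSO was -44.98 points in mESCs and 8.6 points in 2CLCs, so the 2CLC difference was higher by 53.58 points. For Cdh10, a type II cadherin, it was 7.68 points in mESCs and -66.84 points in 2CLCs, which sets them -74.52 points apart (2CLC minus mESC). For Dpp10, a potassium channel subunit, it was 0.76 points in mESCs, close to 0, and -30.38 points in 2CLCs, a difference of -31.14 points.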

How the results depend on the processing

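No paired analysis was possible because the files hold no values for single libraries. Of 181 values computed under 10 alternatives for 26 results, 164 stayed close to the reported value, 17 did not, and 0 changed sign. The high counts rest on few genes and moved most. In mESCs, genes higher in dTAG numbered 1 with domains of at least 50 kb only, 1 with domains trimmed by 5 kb and 2 at a limit of 5 points, against 0. In 2CLCs they numbered 1 with domains of at least 50 kb, 1 with the longest transcript, 4 at 5 points and 0 at 20 points, against 2. Starts entering a domain in mESCs numbered 4 with gaps of up to 10 kb closed and 2 within 5 kb, against 7, and in 2CLCs 0 within 5 kb, against 2. For 2CLC against mESC in DMSO, 9 genes were lower at 5 points, against 5, and higher ones numbered 1 with gaps closed, 4 at 5 points and 1 at 20 points, against 2. In dTAG, 9 were lower and 2 higher at 20 points, against 14 and 6. The median body share in 2CLC DMSO was 99.84% with gaps closed. Depth, and with it the reliability of short gaps and narrow domains, is unknown.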

Other observations

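In the unnamed set, which covers 62.6% of chromosomes 1 to 19 and X, the median body share was 94.1% over the 47 genes and 41.4% over the other genes of at least 100 kb. Genes with few or no bases in sorted domains had 40.6% (Slit3), 54.6% (Tenm3), 74.9% (Tenm4) and 89.2% (Csmd2) there, and Dscam had 98.2%. Some cadherin genes covered almost throughout in the mESC sets were low there, with 0% (Cdh9), 36.6% (Cdh7) and 58.8% (Cdh12). Others were not, with 84.9% (Cdh18), 89.8% (Cdh8) and 100% (Cdh20). Cntn6 had 46.0%. As the name of the set gives no condition, these values were compared with no group.

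Most listed genes have several annotated transcript starts, 180 in all. In mESCs, 66.1% of them lay in DMSO domains and 47.2% in dTAG domains, and in 2CLCs 68.3% and 51.7%. In mESC DMSO, 13 genes had some starts inside and some outside domains, and in 2CLC dTAG 16 did. These shares and counts were not taken over other genes, and genes with many starts weigh more in the shares. Of 11 starts of Dlgap1, 7 were in domains in mESC DMSO and 0 in mESC dTAG, and 10 and 4 in 2CLCs. Of 9 starts of Robo2, 9 were in domains in mESC DMSO and 5 in mESC dTAG, and 5 and 2 in 2CLCs. These genes were named after their values were seen.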
